A study of Mus musculus with 8 samples.

Results

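Complex I of the respiratory chain (NADH:ubiquinone oxidoreductase) was examined in mouse hearts through the genes whose symbols start with Nduf. Members were the rows of the deposited value table annotated with exactly 1 symbol starting with Nduf, pseudogenes left out, with the row of the highest mean over all 8 hearts taken for each gene. This gave 43 of the 19938 genes measured. They were 6 core subunits, 28 accessory subunits, 7 assembly factors named Ndufaf, and Ndufa4 and Ndufa4l2, which carry the name but are not counted here as complex I subunits. The accessory subunit Ndufb4 was not analysed here as a member. Hearts were taken from 4 male mice of the genotype MHC-Plin5 and from 4 male controls, each aged 12 weeks, with the genetic background c57/bl and a source name that says fasted. The series title describes overexpression of Plin5, the lipid droplet coat protein perilipin 5, specific to cardiomyocytes. The labels do not describe the promoter construct, the founder line or the exact genotype of the controls. RNA of the hearts was hybridised to Affymetrix whole-transcript arrays, 1 array per heart, and the comparison asks which transcripts differ with extra perilipin 5.

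Complex I takes electrons from NADH at the tip of an arm that stands in the mitochondrial matrix, passes them along iron-sulphur clusters to ubiquinone, and uses the energy released to pump protons across the inner membrane. The core subunits do this chemistry. Those of the matrix arm are encoded in the nucleus and those of the membrane arm in mitochondrial DNA. Accessory subunits surround and stabilise the core, and assembly factors help to build the complex without staying in it. The heart, which draws most of its energy from mitochondrial respiration, is rich in complex I.

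Plin5 stood at log2 values of 12.17, 12.69, 12.63 and 12.08 in MHC-Plin5 hearts 1 to 4 and at 8.92, 8.87, 9.04 and 8.58 in control hearts 1 to 4, so that all 4 MHC-Plin5 hearts lay above all controls. The median of the whole array was 5.987 to 6.044 in 6 hearts but 6.245 in control 2 and 6.181 in MHC-Plin5 4. No array duplicated another, since pairs of hearts correlated at 0.976 to 0.991 (Pearson, over all rows). The cardiomyocyte markers, which include Myh6, Tnnt2 and Actc1, were strongly detected in every heart, with a mean log2 value over 9 genes from 13.53 to 13.58 in control and from 13.27 to 13.57 in MHC-Plin5 hearts. With 4 arrays a group, the number of arrays sets the precision.

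Nearly all complex I transcripts had slightly lower means in MHC-Plin5 hearts, but Ndufs8 was the 1 member that passed the test. Of the 43 members, 1 was called lower and 0 higher at a limma adjusted p under 0.05, beside 1.17% of all genes called lower and 2.08% called higher. The log2 difference (MHC-Plin5 minus control) was below 0 in 42 of 43 members, beside 57.5% of all genes. Its median was -0.26 over the members and -0.03 over all genes tested. In 18 members every MHC-Plin5 heart lay below every control heart, and in 0 members the reverse was seen. Over all genes these shares were 5.0% and 6.24%. At an unadjusted p under 0.05, 20 members were lower and 0 higher, beside 7.86% and 8.69% of all genes. The 20 became 11 when MHC-Plin5 3 was left out and 28 when MHC-Plin5 4 was. The share of all genes at that unadjusted p was not taken in these fits. At a limma adjusted p under 0.05, 0.542% and 2.81% of all genes were called lower in them, beside 1.17% in all 8 hearts. The differences ran from -0.48 in Ndufs4 to 0.12 in Ndufb3, so the largest put a transcript at 71.6% of its control level. In the core the median difference was -0.37, in the accessory subunits -0.26 and in the Ndufaf assembly factors -0.22. Between hearts of a group these class medians spread by 0.11, 0.15 and 0.13 (pooled SD), and the difference between the classes was not tested. Without MHC-Plin5 3 the medians were -0.17 over the members, -0.17 for the accessory subunits and -0.12 for the assembly factors. Centring each array on its median left 0 members called and 9 without overlap, beside 4.03% of all genes.

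**Figure D1:**
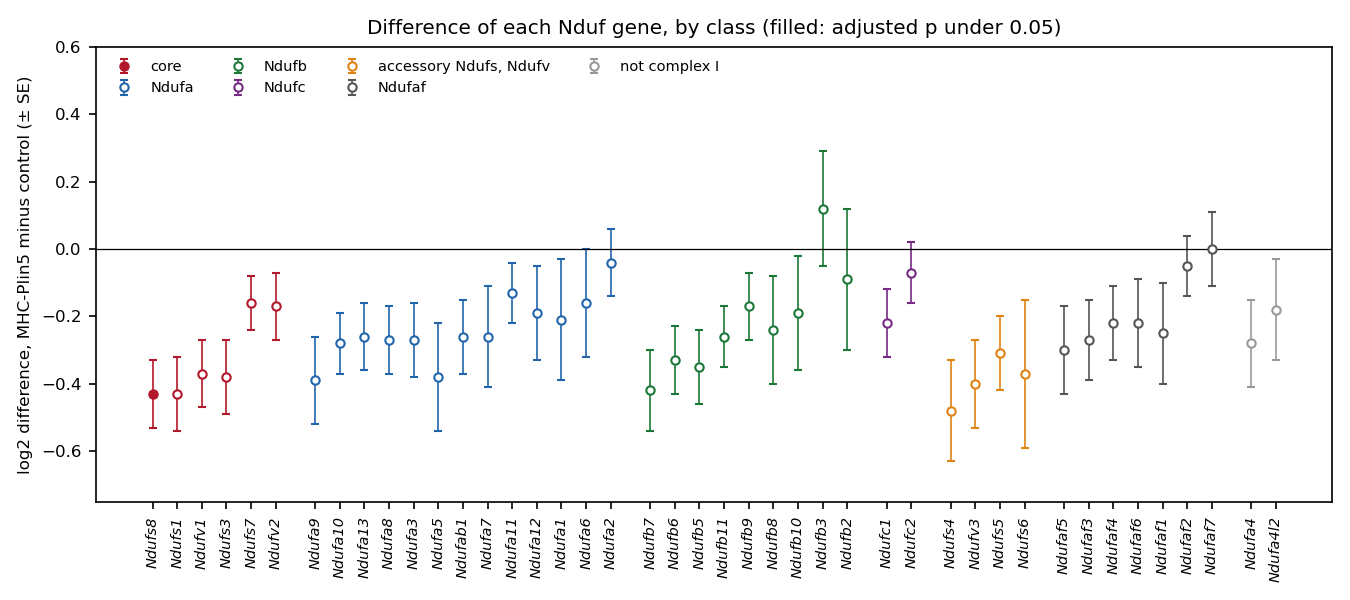
Log2 difference between MHC-Plin5 and control hearts (vertical axis, ± SE from limma, 4 hearts per group) for each of the 43 Nduf genes, ordered by class and then by p. The filled point is Ndufs8, the called member at -0.43, and Ndufb3 at 0.12 is the 1 member above 0.

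All 6 core subunits measured, which belong to the matrix arm, had differences below 0, from -0.43 to -0.16, and 1 of them was called. Ndufs8, which carries iron-sulphur clusters on the path to ubiquinone, fell to 74.1% of its control level. Its log2 values were 12.16, 12.06, 12.06 and 11.95 in control hearts 1 to 4 and 11.81, 11.59, 11.56 and 11.54 in MHC-Plin5 hearts 1 to 4. Every MHC-Plin5 heart lay below every control heart, with MHC-Plin5 1 the nearest to the controls. The log2 difference was -0.43 (SE 0.10, 95% interval -0.65 to -0.22, limma adjusted p = 0.0395).

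The call of Ndufs8 ended when any 1 of several hearts was left out. Those fits also called fewer genes lower over the whole array, 0.281% to 0.662% beside 1.17% in all 8 hearts. The limma adjusted p was 0.129 without control 1, 0.085 without control 2, 0.112 without control 3 and 0.0705 without control 4. It was 0.129 without MHC-Plin5 2 and 0.105 without MHC-Plin5 3, and the call held without MHC-Plin5 1 or MHC-Plin5 4. The call also ended with array median centring (adjusted p = 0.0897), with the heart number as a block (adjusted p = 0.0732) and without control 2 and MHC-Plin5 4 together (adjusted p = 0.0846). The difference itself stayed between -0.50 and -0.40 when any 1 heart was left out.

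Ndufs1 and Ndufv1 belong to the module at the tip of the arm. Ndufs1, the largest subunit, which holds several iron-sulphur clusters, lay at 11.34, 11.33, 11.28 and 11.19 in control and at 11.07, 10.76, 10.64 and 10.96 in MHC-Plin5 hearts 1 to 4. Its groups did not overlap, and its difference of -0.43 (SE 0.11, limma adjusted p = 0.0657) was as large as that of Ndufs8 without passing the test. Ndufv1, which binds NADH and the flavin that first accepts its electrons, lay at 12.54, 12.47, 12.38 and 12.33 in control and at 12.14, 11.98, 11.95 and 12.17 in MHC-Plin5 hearts. Its groups did not overlap either, and its difference was -0.37 (SE 0.10, limma adjusted p = 0.0709). Ndufv2, an iron-sulphur subunit beside Ndufv1, had 12.61, 12.79, 12.71 and 12.65 in control and 12.62, 12.48, 12.38 and 12.58 in MHC-Plin5 hearts. MHC-Plin5 1 overlapped the controls, and the difference was -0.17 (SE 0.10).

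Ndufs3 and Ndufs7 belong, like Ndufs8, to the module that hands electrons to ubiquinone. Ndufs3 stood at 12.54, 12.66, 12.60 and 12.53 in control and at 12.34, 12.09, 11.97 and 12.42 in MHC-Plin5 hearts, a difference of -0.38 (SE 0.11, limma adjusted p = 0.109). A second row of Ndufs3 also gave -0.38. Ndufs7, which holds the last iron-sulphur cluster before ubiquinone, stood at 13.68, 13.60, 13.62 and 13.62 in control and at 13.48, 13.47, 13.45 and 13.50 in MHC-Plin5 hearts. Its groups did not overlap, yet the difference was only -0.16 (SE 0.08, limma adjusted p = 0.391), with SDs of 0.04 in control and 0.02 in MHC-Plin5 hearts. In all, 5 of the 6 core subunits had groups without overlap, beside 5.0% of all genes with every MHC-Plin5 heart below every control. Without MHC-Plin5 4, limma also called Ndufs1 (adjusted p = 0.0479), Ndufv1 (0.0447) and Ndufs3 (0.0406), and without MHC-Plin5 1 it called Ndufs1 (0.043). In these fits 2.81% and 1.34% of all genes were called lower, beside 1.17% in all 8 hearts.

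**Figure D2:**
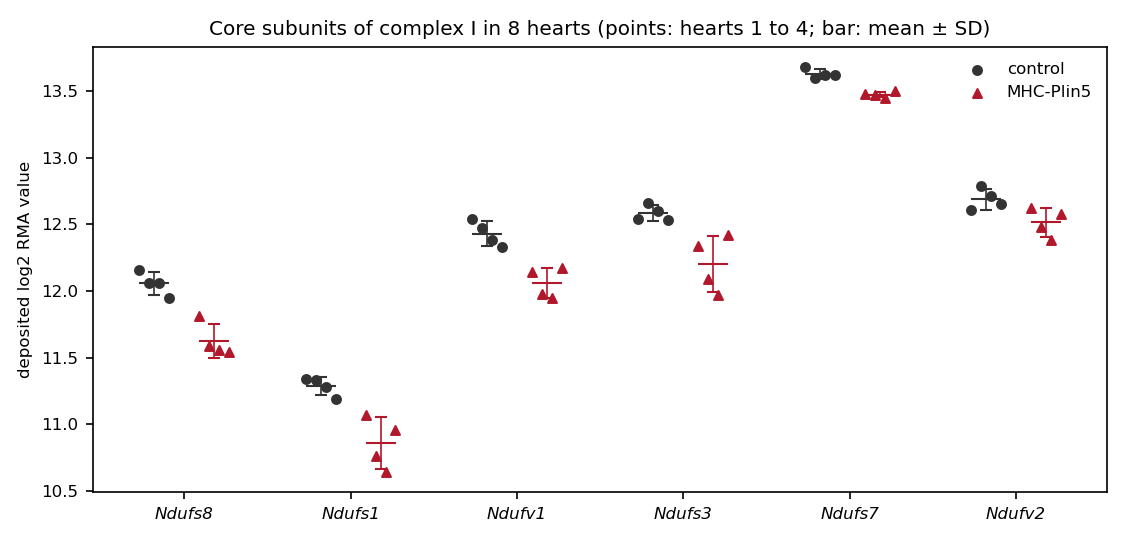
Deposited log2 RMA values (vertical axis) of the 6 core subunits measured, with a point for each heart and a bar for the mean ± SD of 4 hearts. All MHC-Plin5 points (triangles) lie below all control points (circles) in every subunit but Ndufv2, where MHC-Plin5 1 at 12.62 lies beside control 1 at 12.61.

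The promoter windows of the members with the smallest p are printed, as those of the genes nearest to or past the threshold. They are RefSeq sequences of build GRCm38.p6, from 250 bases before to 50 bases after the annotated gene start, 5′ to 3′ on the gene's strand. Of the 43 members, 38 matched a window by gene ID. Ndufs8 (chr19:3912725-3913024, minus strand) and Ndufv1 (chr19:4012706-4013005, minus strand) start 99981 bases apart on the same strand, and Ndufb7 lies at chr8:83566508-83566807, plus strand. Capitals mark the ETS motif CCGGAAG, the kind of site bound by GABP, on either strand. Ndufs1 is named only.
Ndufs8: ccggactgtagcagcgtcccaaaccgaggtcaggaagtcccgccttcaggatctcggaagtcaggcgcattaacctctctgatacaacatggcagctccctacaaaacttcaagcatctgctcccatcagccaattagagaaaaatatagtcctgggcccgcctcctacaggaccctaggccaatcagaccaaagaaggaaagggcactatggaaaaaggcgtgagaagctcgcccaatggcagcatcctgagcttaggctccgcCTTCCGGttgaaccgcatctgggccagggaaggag
Ndufv1: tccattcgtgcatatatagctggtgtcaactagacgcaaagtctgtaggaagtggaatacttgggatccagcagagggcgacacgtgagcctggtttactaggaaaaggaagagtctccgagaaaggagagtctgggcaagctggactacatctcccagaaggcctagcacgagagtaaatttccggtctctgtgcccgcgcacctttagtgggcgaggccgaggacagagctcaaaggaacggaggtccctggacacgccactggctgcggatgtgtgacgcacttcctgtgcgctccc
Ndufb7: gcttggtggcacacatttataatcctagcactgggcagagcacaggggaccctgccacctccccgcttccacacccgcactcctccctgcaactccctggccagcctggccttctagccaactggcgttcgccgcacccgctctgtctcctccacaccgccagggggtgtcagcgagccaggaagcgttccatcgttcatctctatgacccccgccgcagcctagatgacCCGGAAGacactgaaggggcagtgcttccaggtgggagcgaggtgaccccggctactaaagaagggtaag
CCGGAAG was found in the windows of 5 of the 38 members (13.2%), which were Ndufs8, Ndufs3, Ndufb6, Ndufb7 and Ndufaf1, beside 9.93% of all 27025 genes with a window. In Ndufs8 the match begins at base 16 after the start on the opposite strand, and in Ndufb7 at base -20 on the gene's strand. GCATGCG, the core of the site bound by nuclear respiratory factor NRF-1, was found in 5 members (13.2%), Ndufa6, Ndufa8, Ndufa11, Ndufaf4 and Ndufaf5, beside 4.01% of all genes. AAGATGG, the kind of site bound by YY1, was found in 7 members (18.4%), Ndufa3, Ndufa9, Ndufb8, Ndufc1, Ndufs4, Ndufs6 and Ndufs7, beside 7.28%. The half-site AAGGTCA of oestrogen-related receptors was found in Ndufb2 and Ndufs5 (5.26%), beside 5.38%. Both strands were searched for each of the 4 motifs, matches of GCATGCG on opposite strands can overlap each other, and a match describes letters in these windows and no more.

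The accessory Ndufs and Ndufv genes included the largest difference of the family. Ndufs4, an accessory subunit of the NADH module whose loss in mice gives a fatal brain disease, lay at 13.04, 12.78, 12.68 and 12.56 in control and at 12.60, 12.43, 11.98 and 12.11 in MHC-Plin5 hearts. MHC-Plin5 1 lay just above the lowest control. The difference was -0.48 (SE 0.15, limma adjusted p = 0.128). Ndufv3, a small subunit beside Ndufv1 and Ndufv2, had 9.23, 9.45, 9.26 and 9.33 in control and 9.18, 8.87, 8.58 and 9.04 in MHC-Plin5 hearts, without overlap (-0.40, SE 0.13, limma adjusted p = 0.136). Ndufs5, on the intermembrane side of the membrane arm, had 9.85, 10.04, 9.97 and 9.74 against 9.76, 9.51, 9.42 and 9.68, a difference of -0.31 (SE 0.11). Its groups overlapped through MHC-Plin5 1 and control 4. Ndufs6, a zinc-binding subunit of the NADH module, spread the most of these, from 11.45 to 12.05 in control and over 11.56, 11.17, 10.79 and 11.97 in MHC-Plin5 hearts 1 to 4 (-0.37, SE 0.22, limma adjusted p = 0.459). MHC-Plin5 3 and 4 were its lowest and highest transgenic hearts, and its difference was -0.18 without the first and -0.57 without the second.

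Among 13 Ndufa genes, Ndufab1 included, all 13 differences were below 0 with a median of -0.26, and 0 were called. Of these, 7 were lower at an unadjusted limma p under 0.05, beside 7.86% of all genes. Groups without overlap, below the controls, were seen in 6, beside 5.0% of all genes. Ndufa9, which binds NADPH where the arms of the complex meet, lay at 12.19, 12.47, 12.32 and 12.11 in control and at 12.10, 11.75, 11.63 and 12.03 in MHC-Plin5 hearts (-0.39, SE 0.13, limma adjusted p = 0.139). Control 4 and MHC-Plin5 1 were the closest hearts. Ndufa10, a membrane-arm subunit with the fold of a nucleoside kinase, lay at 12.92, 12.90, 12.85 and 12.82 against 12.68, 12.55, 12.45 and 12.69 (-0.28, SE 0.09). Ndufa13, also known as GRIM-19, lay at 11.74, 11.89, 11.80 and 11.71 against 11.68, 11.53, 11.38 and 11.51 (-0.26, SE 0.10). Ndufa8, which faces the intermembrane space, lay at 12.36, 12.40, 12.43 and 12.39 against 12.16, 11.99, 12.01 and 12.33 (-0.27, SE 0.10). In these 4 genes no MHC-Plin5 heart reached a control heart, and their limma adjusted p ran from 0.139 to 0.198. Ndufab1, the acyl carrier protein of mitochondria, had -0.26 (SE 0.11), with -0.28 in its second row. Ndufa11 had -0.13, and 0.07 in its second row, so its rows differed in sign. The X-linked Ndufa1 lay at 9.92, 10.25, 10.21 and 9.96 in control and at 9.90, 9.65, 9.52 and 10.43 in MHC-Plin5 hearts, where MHC-Plin5 4 was the highest of all 8 (-0.21, SE 0.18). Its difference was -0.39 with that heart left out, -0.09 with MHC-Plin5 3 left out and -0.13 with MHC-Plin5 2 left out. Ndufa2 had the smallest difference of the Ndufa genes, -0.04 with a 95% interval from -0.26 to 0.18. Ndufa7, where MHC-Plin5 4 at 9.53 lay above all controls and the other 3 MHC-Plin5 hearts below them, had -0.26 (SE 0.15, limma adjusted p = 0.423), and 0.0364 as its adjusted p without MHC-Plin5 4. It is named here because of that call, and so was chosen after its values were seen.

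The 9 Ndufb genes, which build the far end of the membrane arm, had a median of -0.24, with 8 differences below 0 and 0 called. Of these, 4 were lower at an unadjusted limma p under 0.05, beside 7.86% of all genes. Groups without overlap, below the controls, were seen in 5, beside 5.0% of all genes. Ndufb7, on the intermembrane side, lay at 9.90, 10.09, 10.11 and 9.95 in control and at 9.62, 9.44, 9.43 and 9.86 in MHC-Plin5 hearts (-0.42, SE 0.12, limma adjusted p = 0.0793). It was 74.5% of its control level, with MHC-Plin5 4 the closest to the controls. Without MHC-Plin5 4 its limma adjusted p was 0.0188 and its difference -0.52. Ndufb6 lay at 12.20, 12.37, 12.22 and 12.16 against 12.08, 11.90, 11.80 and 11.84 (-0.33, SE 0.10). Ndufb5 lay at 12.13, 12.20, 12.24 and 12.17 against 12.07, 11.93, 11.60 and 11.76 (-0.35, SE 0.11). Ndufb11, which is X-linked, lay at 12.67, 12.79, 12.66 and 12.72 against 12.53, 12.48, 12.29 and 12.51 (-0.26, SE 0.09), and its second row had -0.14. In the rows kept, none of these 3 overlapped between groups. The second row of Ndufb11 did overlap, with MHC-Plin5 4 at 12.19 and the controls from 12.05 to 12.2. Ndufb3 was the exception to the direction, at 8.28, 8.13, 8.45 and 8.17 in control and 8.33, 8.33, 7.97 and 8.87 in MHC-Plin5 hearts (0.12, SE 0.17, 95% interval -0.25 to 0.49). Its sign rested on MHC-Plin5 4, without which the difference was -0.05. Of the Ndufc genes, Ndufc1 lay at 11.86, 11.95, 11.91 and 11.87 against 11.81, 11.62, 11.51 and 11.78, without overlap (-0.22, SE 0.10, limma adjusted p = 0.295). Ndufc2 lay at 13.02, 13.04, 13.10 and 13.01 against 13.03, 12.86, 12.92 and 13.08 and overlapped (-0.07, SE 0.09, from -0.11 to -0.04 with each heart left out). Rows annotated with both Ndufb4 and Ndufb4b had differences of -0.15 and -0.16 and could not be given to either gene.

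**Figure D3:**
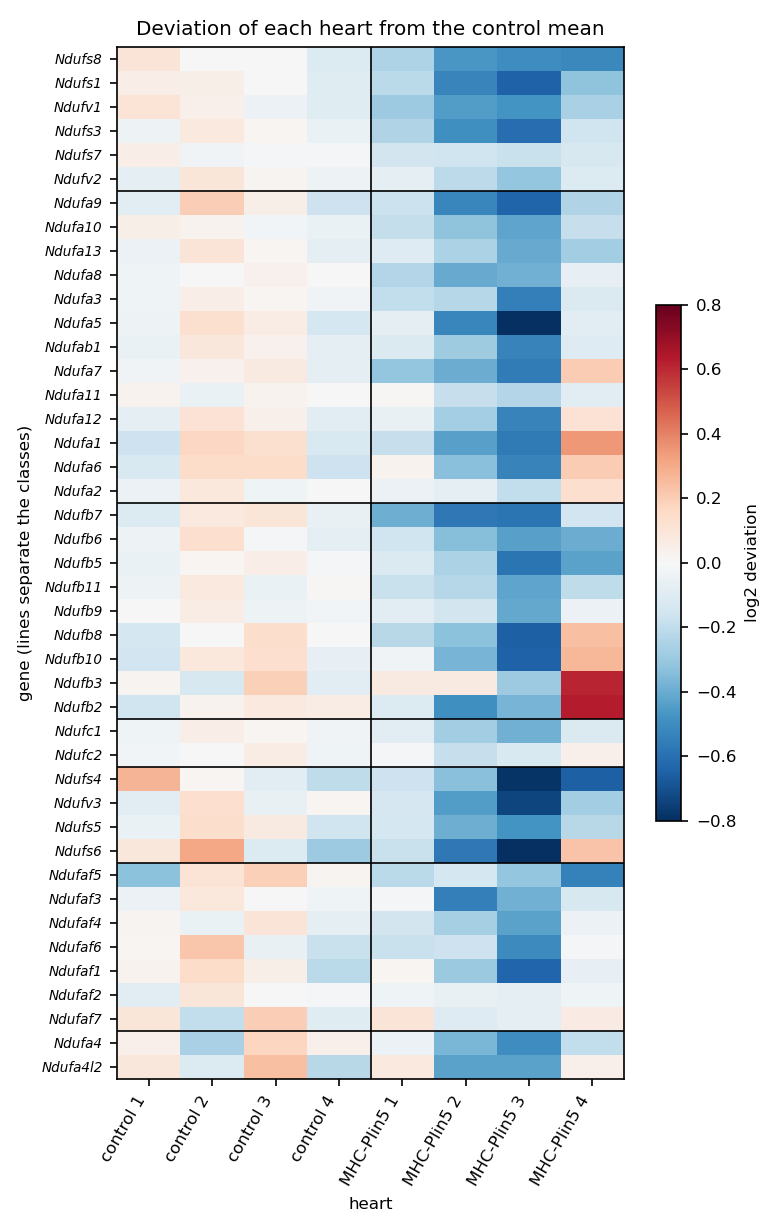
Deviation of each heart (columns) from the control mean (log2, colour) for the 43 Nduf genes (rows), with lines between the classes and between the groups. MHC-Plin5 3 is the lowest of the 8 hearts in 34 genes, while MHC-Plin5 4 is above all controls in 8 accessory subunits.

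None of the 7 Ndufaf assembly factors was called by limma. Of these, 1 was lower at an unadjusted limma p under 0.05, beside 7.86% of all genes. Groups without overlap were seen in 0, beside 5.0% of all genes below the controls and 6.24% above. Ndufaf5, which hydroxylates an arginine of Ndufs7, lay at 6.51, 6.95, 7.03 and 6.86 in control and at 6.62, 6.70, 6.53 and 6.30 in MHC-Plin5 hearts (-0.30, SE 0.13, limma adjusted p = 0.284). Control 1 lay within the MHC-Plin5 range. Ndufaf3 and Ndufaf4 act together on the ubiquinone module. Ndufaf3 lay at 9.74, 9.87, 9.79 and 9.75 against 9.77, 9.24, 9.40 and 9.66 (-0.27, SE 0.12), and Ndufaf4 at 9.66, 9.58, 9.74 and 9.56 against 9.49, 9.37, 9.21 and 9.59 (-0.22, SE 0.11). A single MHC-Plin5 heart overlapped the controls in each, MHC-Plin5 1 in Ndufaf3 and MHC-Plin5 4 in Ndufaf4. Ndufaf6 lay at 7.38, 7.59, 7.31 and 7.19 against 7.19, 7.20, 6.86 and 7.36 (-0.22, SE 0.13), which became -0.14 without control 2 and -0.12 without MHC-Plin5 3. Ndufaf1, part of the membrane-arm assembly machinery, had -0.25 (SE 0.15). Ndufaf2, a late-acting relative of Ndufa12, had -0.05 (95% interval -0.24 to 0.14), and Ndufaf7 stood at 99.7% of its control level (95% interval of the log2 difference -0.25 to 0.24).

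Ndufa4, now known as a subunit of cytochrome c oxidase, lay at 11.92, 11.62, 12.05 and 11.92 in control and at 11.83, 11.51, 11.38 and 11.68 in MHC-Plin5 hearts (-0.28, SE 0.13, limma adjusted p = 0.304). Its relative Ndufa4l2, known as a hypoxia-induced gene, lay at 7.86, 7.66, 8.01 and 7.55 against 7.85, 7.34, 7.34 and 7.81 (-0.18, SE 0.15), from -0.27 to -0.10 with each heart left out. Both overlapped between groups.

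Assembly factors that do not carry the Nduf name included a larger fall. Foxred1, a flavin-binding protein needed to build complex I, stood at 10.29, 10.29, 10.44 and 10.22 in control hearts 1 to 4 and at 9.92, 9.64, 9.84 and 9.46 in MHC-Plin5 hearts 1 to 4. The groups were apart, with MHC-Plin5 4 the lowest heart. Foxred1 fell to 66.4% of its control level (log2 difference -0.59, SE 0.12, limma adjusted p = 0.0221). Of 13 such factors, 1 was called lower and 0 higher, beside 1.17% and 2.08% of all genes. The 13 had a median of -0.18, and all 13 were below 0. That median was -0.10 when MHC-Plin5 3 was left out and -0.11 when MHC-Plin5 2 was. The call ended without control 1 (adjusted p = 0.0708), control 2 (0.0565), control 3 (0.0817) or MHC-Plin5 2 (0.0804), and with array median centring (0.0638). Tmem126b, which works with Ndufaf1 on the membrane arm, was next at 8.57, 8.50, 8.45 and 8.36 against 8.42, 7.80, 8.02 and 8.05 (-0.40, SE 0.13, adjusted p = 0.137). Of the subunits encoded in mitochondrial DNA 1 was measured, ND3, at 13.34, 13.47, 13.49 and 13.36 against 13.39, 13.36, 13.21 and 13.27 (-0.11, SE 0.09, limma adjusted p = 0.623), and -0.07 without MHC-Plin5 3.

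In these genes the MHC-Plin5 hearts differed among themselves more than the control hearts did. The SD was larger in MHC-Plin5 than in control hearts in 39 of 43 members (90.7%), beside 56.2% of all genes, and the median SD over the members was 0.20 against 0.09. As medians over the members, the hearts deviated from the control mean by -0.14, -0.33, -0.48 and -0.10 in MHC-Plin5 1 to 4 and by -0.04, 0.07, 0.03 and -0.07 in control 1 to 4. MHC-Plin5 3 was below every control in 40 of 43 members, beside 35.4% of all genes, and MHC-Plin5 2 in 38, beside 30.8%. MHC-Plin5 1 was below every control in 23 members, beside 28.3%, and MHC-Plin5 4 in 24, beside 16.2%. MHC-Plin5 4 was above every control in 8 members, Ndufa1, Ndufa2, Ndufa6, Ndufa7, Ndufb2, Ndufb3, Ndufb8 and Ndufb10, beside 31.6% of all genes. These are all accessory subunits, and the widest of them was Ndufb2 at 8.79 in MHC-Plin5 4 against 8.24 in the highest control. The array of MHC-Plin5 4 also had the higher median over all rows given above, and the part of that offset in these values was not tested.

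The cardiomyocyte markers placed the 4 MHC-Plin5 hearts in the same order. Their median deviation was -0.05, -0.10, -0.31 and 0.00 in MHC-Plin5 1 to 4, and 0 of 9 were called by limma, with 0 at an unadjusted p under 0.05 and a median difference of -0.11. Of the 9, 8 had differences below 0, beside 57.5% of all genes. In 2 of the 9 every MHC-Plin5 heart lay below every control, beside 5.0% of all genes. The members' median less that of the cardiomyocyte markers was -0.09, -0.23, -0.16 and -0.10 in MHC-Plin5 1 to 4 and between -0.04 and 0.06 in the controls. For the core subunits this was -0.18, -0.36, -0.17 and -0.21 in MHC-Plin5 hearts and between -0.05 and 0.06 in the controls. In RNA of heart tissue, fewer cardiomyocytes and less of a transcript per cardiomyocyte cannot be told apart. Leukocyte markers (5 genes, 0 called) had a mean log2 value from 7.36 to 7.81 in control and from 7.58 to 8.23 in MHC-Plin5 hearts, the highest being MHC-Plin5 3. Fibroblast markers (6 genes, 0 called) ran from 9.09 to 9.53 and from 9.20 to 9.82, again highest in MHC-Plin5 3. Differences were above 0 in all 6 fibroblast markers (median 0.31) and in 4 of 5 leukocyte markers (median 0.3). In each of these 2 lists 1 marker was higher at an unadjusted limma p under 0.05, beside 8.69% of all genes. Atrial markers (4 genes, 0 called) ran from 7.77 to 11.61 and from 8.57 to 11.43, and adipocyte markers (5 genes, 0 called) from 5.45 to 7.18 and from 5.43 to 5.96. The atrial marker Myl7 alone ran from 6.35 to 12.92 in control and from 5.98 to 11.9 in MHC-Plin5 hearts. Median differences were -0.15 for 5 endothelial, -0.16 for 4 smooth muscle and pericyte and -0.21 for 1 erythroid marker, with 0 called. Of the 4 smooth muscle and pericyte markers 2 were below 0 and 2 above. Rgs5 among them had -0.36, with every MHC-Plin5 heart below every control, beside 5.0% of all genes. None of these lists had a marker listed at 0. Their part in the complex I values was not tested.

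The other complexes of oxidative phosphorylation had median differences of the same sign. The complex II list holds the subunits Sdha, Sdhb, Sdhc and Sdhd and the assembly factors Sdhaf1, Sdhaf2, Sdhaf3 and Sdhaf4. Its differences ran from -0.44 in Sdhc to 0.28 in Sdhaf4. The complex III list also holds Bcs1l, Ttc19 and Lyrm7, and no median was taken over subunits alone. The median log2 difference was -0.23 over the 8 genes listed for complex II and -0.18 over 12 for complex III. It was -0.10 over 18 for complex IV, which here includes Ndufa4, and -0.19 over 17 for the ATP synthase. Over the Nduf genes it was -0.26. These medians depended on single hearts. Without MHC-Plin5 3 they were -0.17 for complex II, -0.12 for complex III and -0.06 for complex IV, beside -0.17 for the Nduf genes. Without MHC-Plin5 4 they were -0.31 for complex II and -0.28 for complex III, beside -0.31. Complex IV also stood at -0.06 with array median centring. The order of the complexes depended on the setting, since without control 2 and MHC-Plin5 4 together complex II had -0.32 and complex III -0.29 beside -0.29 for the Nduf genes, and with array weights complex II had -0.30 beside -0.27. Limma called 0 genes in each of these 4 lists. In either direction, 3, 4, 5 and 3 genes had an unadjusted limma p under 0.05, and the 5 of complex IV include Cox6a1, which was higher. Over all genes, 7.86% were lower and 8.69% higher at that p. Groups without overlap below the controls were seen in 2, 2, 4 and 6 genes, and 2 genes of complex IV lay wholly above them. The shares of all genes were 5.0% below and 6.24% above. Whether the lists differ from the Nduf genes was not tested. Uqcrc1, a core protein of complex III, had -0.34 (SE 0.09, limma adjusted p = 0.0679), and Uqcrfs1, its iron-sulphur protein, -0.55 (SE 0.17). In complex II, the membrane anchor Sdhd had -0.42 (SE 0.12) and the flavoprotein Sdha -0.32 (SE 0.11). Cox7a1, the muscle form of a complex IV subunit, had -0.41 (SE 0.11), while Cox6a1, the form of another complex IV subunit found widely outside muscle, lay at 9.56, 10.09, 10.09 and 10.06 in control and at 10.37, 10.42, 10.50 and 10.43 in MHC-Plin5 hearts. Every MHC-Plin5 heart was above every control, with a difference of 0.48 (SE 0.13, limma adjusted p = 0.0712). Without control 1, its lowest heart, the difference of Cox6a1 was 0.35 (limma adjusted p = 0.133). In the ATP synthase, Atp5g3 had -0.27 (SE 0.09) and Atp5e -0.41 (SE 0.13). Leaving out MHC-Plin5 1 led to a call of Sdhd (adjusted p = 0.0375), and leaving out MHC-Plin5 4 to calls of Uqcrfs1 (0.0319) and Cox7a1 (0.0358). The share of all genes called lower was 1.34% and 2.81% in these fits, beside 1.17% with no heart left out.

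**Figure D4:**
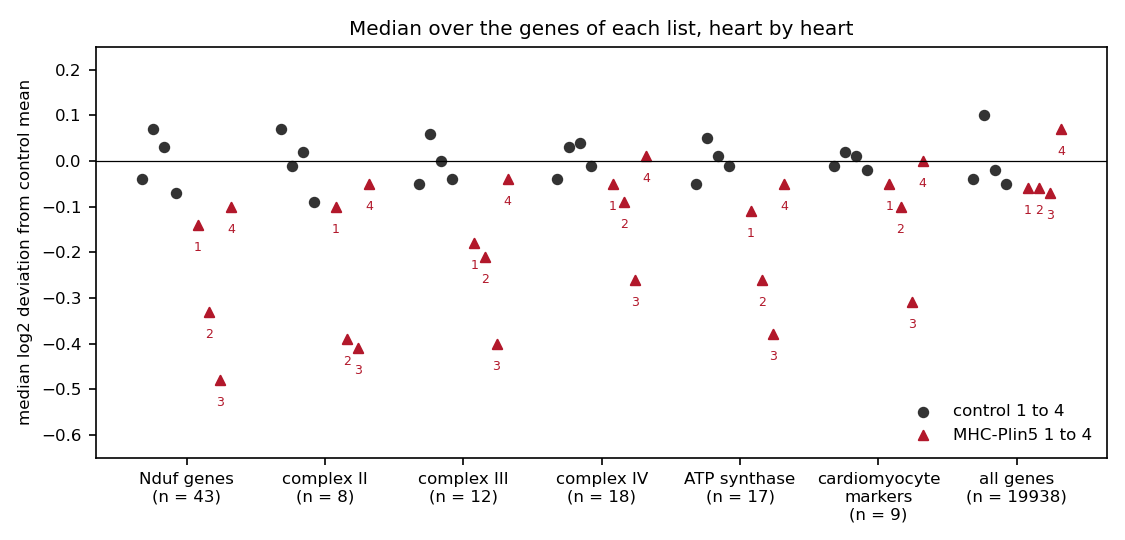
Median log2 deviation from the control mean (vertical axis) over the genes of each list, with a point for each heart and the number of the MHC-Plin5 heart under its triangle. MHC-Plin5 3 is the lowest heart in all 5 complexes and in the cardiomyocyte markers (-0.48 for the Nduf genes, -0.31 for the markers), and the 4 MHC-Plin5 hearts lie below the 4 controls for the Nduf genes.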

How the data were processed

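Hearts of 4 MHC-Plin5 and 4 control mice were profiled on Affymetrix whole-transcript arrays. The deposited values are on the log2 scale and were made by the authors with RMA, for which the submitters' processing notes name Affymetrix Expression Console without a version. Each heart was counted as a separate mouse, as the series text has 4 in each group. Of 35556 rows, 21789 had exactly 1 symbol in GEO's platform annotation, and the row with the highest mean was kept for each of 19938 genes. No batch is labelled, and none was tested.

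All genes were fitted with lmFit and eBayes of limma 3.58.1 (R 4.3.3), where the model held genotype alone. Tests were two-sided, p-values were adjusted by Benjamini-Hochberg over all 19938 genes, and calls needed an adjusted p under 0.05. Dim rows were kept, and every log2 difference is the MHC-Plin5 mean less the control mean. In a simulation of this comparison with 19938 genes, 30% of log2 changes of 0.5 and 87% of those of 1 were recovered. It changed 100 genes by each amount, and 8 of its 125 calls were false. Its noise was independent between genes, with the same SD in both groups. It does not give the share recovered among the members, whose SD was mostly larger in MHC-Plin5 hearts.

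The members and lists were chosen with earlier results of these data known. Values in every heart were given for the core subunits, called members, the 4 smallest p in Ndufa, Ndufb, accessory Ndufs and Ndufv, and Ndufaf, members above 0, both Ndufc genes, Ndufa1, Ndufa4 and Ndufa4l2, and of each other list for called genes and the 2 with the smallest p, some shortened to the difference. Other members were named after their values were seen. Alternatives were filters, scalings, variance models, array weights, the mean over rows, the heart number as a block, and hearts left out. Python 3.11.15 with pandas 2.3.3 prepared tables.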

Additional observations from a re-analysis of the deposited data

Results flagged for a closer look

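Cox6a1 in control 1 lay far from the other 3 control hearts, at a log2 value of 9.56 with the nearest control at 10.06, a gap that takes up 0.931 of the range of the group. Among the 110 groups of 4 hearts looked at in this way (the 43 Nduf genes and the 12 other genes named, in each genotype), it was the only 1 to stand out so far, while chance alone gives about 5% of groups.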

How the results depend on the processing

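Ndufs8 was the 1 member called lower. The count was 4 where genes of a mean under 7 were left out and with quantile normalization (Ndufb7, Ndufs1, Ndufs8 and Ndufv1 in both), 3 with an intensity trend and robust variances, and 6 with array weights, while the share of all genes called lower went from 1.17% to 2.98%, 1.78%, 1.36% and 3.72%. Without control 2 and MHC-Plin5 4 together it stayed at 1, but that member was Ndufb7 and not Ndufs8. It was 0 with median centring, with the replicate block and at a threshold of 0.01, and ran from 0 to 6 with each heart left out. Leaving out any control heart, or the second or the third MHC-Plin5 heart, gave 0. Leaving out MHC-Plin5 1 gave 2 and leaving out MHC-Plin5 4 gave 6. The share of all genes called lower was 1.34% and 2.81% in these last 2, and from 0.281% to 0.662% where leaving out a heart gave 0 members. No alternative called a member higher. The medians stayed below 0 in every alternative run and moved by less than the spread between hearts, from -0.31 to -0.17 over the members, -0.41 to -0.32 in the core, -0.32 to -0.17 in the accessory subunits and -0.28 to -0.12 in the assembly factors with each heart left out. Ndufb3 turned to -0.09 without control 2 and MHC-Plin5 4 together and to -0.05 without MHC-Plin5 4 alone, and ran up to 0.25 with other hearts left out. The shared heart numbers were not taken to pair the hearts, since same-numbered hearts had correlations of their deviations of 0.187, 0.025, -0.107 and -0.04. The block took the genes called lower over the whole array from 233 to 177. The causes of these changes were not tested. Small differences are limited by the 4 arrays per group.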
